A study of Mus musculus with 12 samples.

Results

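The genes that load calcium into the endoplasmic reticulum (ER), release it and refill it from outside the cell were followed in islet RNA of mice that carry a Wfs1 mutation. The set holds 10 genes of the 24078 entries in the RPKM table, taken by gene symbol and not by any measured value: Atp2a1, Atp2a2 and Atp2a3, Itpr1, Itpr2 and Itpr3, Ryr2, Stim1, Stim2 and Orai1. All 10 were in the table once. The study compared 3 genotypes with 4 animals in each: wild type (WT), heterozygous for the Wfs1tm1Koks allele (Wfs1HZ) and homozygous for it (Wfs1KO). In this allele a LacZ cassette takes the place of most of exon 8, and the N-terminal part of WFS1 is still made as a fusion with LacZ, so Wfs1KO is not a complete loss of the transcript. All animals were male F2 hybrids of 129S6/SvEvTac and C57BL/6, aged 5 to 6 months. Their islets were released with collagenase, picked by hand and kept overnight in a high glucose medium before RNA was taken. Each library came from the islets of a single animal, from 10 ng of total RNA, read with 75 bp forward and 35 bp reverse reads.

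Beta cells pump calcium into the ER with SERCA ATPases, and the high calcium in the lumen is needed by the chaperones that fold proinsulin. Inositol trisphosphate (IP3) receptors and ryanodine receptors let this calcium out into the cytosol, which contributes to the calcium rise during insulin secretion. When the store empties, the STIM proteins of the ER membrane sense the low luminal calcium and open ORAI channels of the plasma membrane, which is called store-operated calcium entry. WFS1 is itself a protein of the ER membrane, and the state of ER calcium is among the functions it is known for. The comparison therefore asks whether the RNA of the pumps, channels and sensors differs between genotypes.

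RPKM are reads scaled to the length of a transcript and to the mapped reads of the library, so they can be set side by side between genes of an animal. The table holds no read counts. From the steps between low values of short RNA genes, 2163000 to 9474000 reads were estimated to stand behind the RPKM of an animal, and 3 reads on a transcript of 2000 bases correspond to 0.158 to 0.693 RPKM (counting error only). The estimate is well below the number of reads per sample that the study states, the gap was not resolved, and every read number given here rests on the estimate. Wfs1, the targeted gene, was at 33.9, 27.4, 24.9 and 28.4 RPKM in WT, at 15.0, 4.69, 16.4 and 8.16 in Wfs1HZ and at 5.08, 6.61, 3.46 and 2.45 in Wfs1KO, and it fell by 2.76 on the log2 scale from WT to Wfs1KO (limma with Benjamini-Hochberg adjustment, adjusted p = 0.0400). This call did not hold in 16 of 20 alternative settings, where the adjusted p ranged up to 0.541 and the direction stayed the same. The WT animals lay above all mutant animals, but Wfs1HZ replicate 2 lay within the Wfs1KO range, and Wfs1KO and Wfs1HZ overlapped (log2 fold change -1.24, adjusted p = 1 by limma), so the gene did not separate the library labelled Wfs1HZ replicate 2 from Wfs1KO. The markers of islet cells were present, with summed beta cell markers at 12565 to 179874 RPKM and summed alpha cell markers at 50944 to 220984 RPKM, while Mafa was listed at 0 in every WT animal. Markers of acinar cells, the enzyme-secreting cells around the islets, summed to 53811 to 120998 RPKM in 8 animals. The other 4 animals stood apart: Wfs1HZ replicate 2 at 9107 and Wfs1KO replicate 4 at 8535 RPKM were lower, and Wfs1HZ replicate 4 at 307248 and Wfs1KO replicate 3 at 278975 RPKM were higher. Wfs1HZ replicate 2 also had the most smooth muscle marker RNA, 145 RPKM against 3.09 to 31.9 in the other animals. Results are therefore also given without these 4 animals, a choice made after the data had been seen. That leaves 2 animals in Wfs1HZ, 2 in Wfs1KO and all 4 in WT, so p-values from these fits rest on small groups. In whole islets, fewer cells of a type and less RNA per cell cannot be told apart.

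The 10 genes covered levels from near 0 to among the highest in the islet. Atp2a2, which encodes SERCA2, averaged 211 RPKM over the 12 animals, above 99.5% of all entries and 12.6 times the next gene of the set. Itpr1 (16.7 RPKM), Atp2a3 (13.96), Stim1 (12.9) and Stim2 (12.5) formed a middle group. Itpr3 (5.77), Itpr2 (3.87) and Orai1 (3.25) were lower, and Ryr2 (0.547) and Atp2a1 (0.257) were lowest. By the estimated depth Atp2a1 stood on 0 to 6.98 reads in an animal, and Ryr2, a far longer transcript, on 8.68 to 98.2. Some neighbours in this order could not be separated by their spread. Itpr1 was above Atp2a3 in 6 of the 12 animals, Atp2a3 above Stim1 in 8, Stim1 above Stim2 in 6, and Itpr2 above Orai1 in 6. The steps from Atp2a2 to Itpr1, from Stim2 to Itpr3 and from Orai1 to Ryr2 held in 12 of 12 animals.

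**Figure D1:**
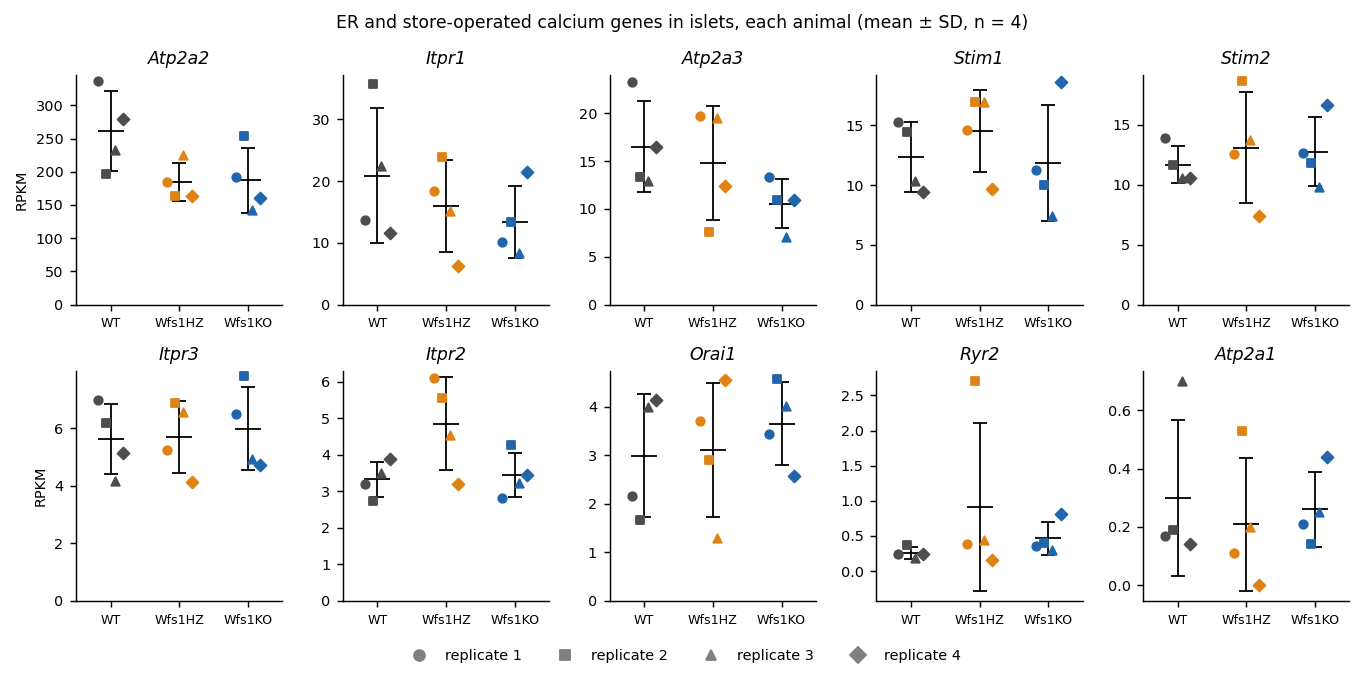
RPKM (linear vertical axes, a scale of its own for each gene) of the 10 genes in each animal of the WT, Wfs1HZ and Wfs1KO genotypes. Symbols mark the replicate number, bars the mean and SD of 4 animals. The genotypes overlap in every panel, and single animals such as Wfs1HZ replicate 2 for Ryr2 (2.70 RPKM) stand far from the rest of their group.

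Between genotypes, none of the 10 genes passed the test in any of the 3 pairwise comparisons. At a false discovery rate (FDR) under 0.05, 0 of 10 were called between Wfs1KO and WT, where 0.0138% of the 21701 transcripts tested were called, and 0 of 10 in the other comparisons, where 0% were called. At an unadjusted p under 0.05, 1 of 10 was called between Wfs1KO and WT, Atp2a3, against 5.64% of all transcripts tested. No member was called at that level between Wfs1KO and Wfs1HZ (2.45% of all transcripts) or between Wfs1HZ and WT (2.35%). In no gene of the set did the 4 animals of a genotype lie wholly above or below those of another. Over all transcripts tested, 2.74% did so between Wfs1KO and WT, 1.43% between Wfs1KO and Wfs1HZ and 1.66% between Wfs1HZ and WT. The members' median log2 fold change was 0.01, -0.10 and 0.02 in these comparisons, beside 0.07, 0.04 and 0.04 over all transcripts tested.

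**Figure D2:**
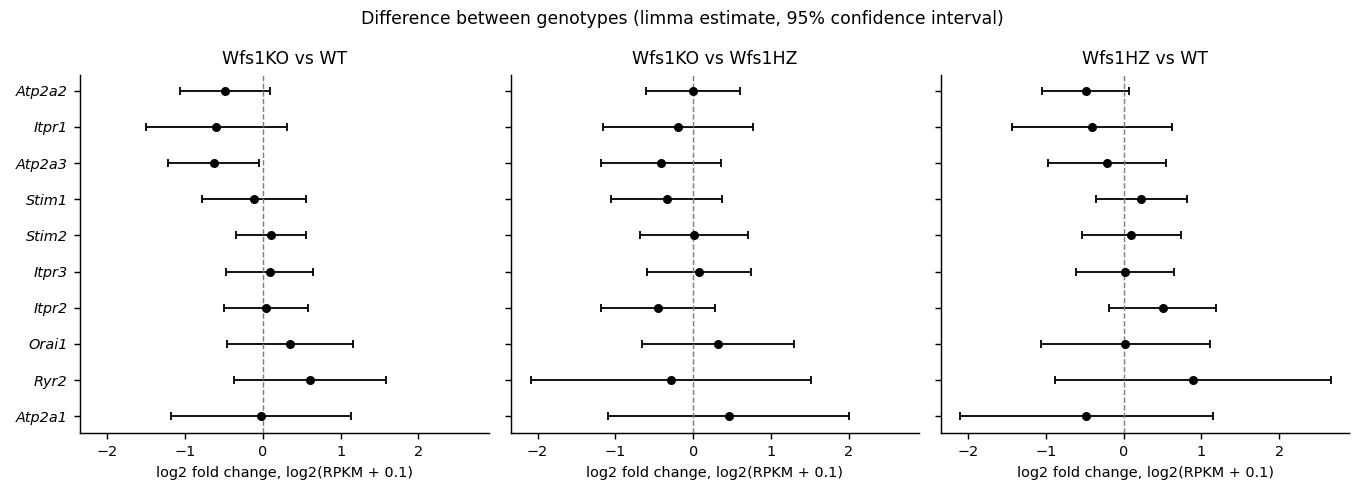
Log2 fold change of each gene on the log2(RPKM + 0.1) scale in the 3 pairwise comparisons, as limma estimates (points) with 95% confidence intervals (lines). The interval of Atp2a3 between Wfs1KO and WT ends at -0.05, and every other interval includes 0.

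Both expressed SERCA pumps had lower means in Wfs1KO than in WT islets, without passing the test. Atp2a2 (chr5:122453513-122502225 in mm10, minus strand) is the housekeeping pump of the ER in most cells. It was at 337, 197, 233 and 279 RPKM in WT, at 185, 164, 225 and 164 in Wfs1HZ and at 192, 254, 143 and 161 in Wfs1KO. The means were 261 ± 60.4, 184 ± 28.8 and 187 ± 49.1 RPKM (SD, n = 4). Both mutant groups had 3 of 4 animals below the lowest WT animal, and the remaining animal of each lay within the WT range. In Wfs1KO against WT its log2 fold change was -0.48 (95% confidence interval -1.06 to 0.09, adjusted p = 0.879 by limma), and in Wfs1HZ against WT it was -0.49 (-1.05 to 0.07, adjusted p = 1). Without the 4 animals with extreme acinar marker sums the first of these values was -0.21 (unadjusted p = 0.467 by limma). Exact two-sided permutation tests over the 70 splits of 4 against 4 animals, whose smallest p is 0.0286, gave 0.114 and 0.0571. Wfs1KO and Wfs1HZ differed by an estimated 0.0016 with an interval from -0.60 to 0.61. The WT animals are shared by the first 2 comparisons, so these are not independent of each other.

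Atp2a3 (chr11:72961169-72993044, plus strand) encodes SERCA3, a pump with a lower affinity for calcium that is found in beta cells and in blood cells. It was at 23.3, 13.4, 12.9 and 16.5 RPKM in WT, at 19.8, 7.58, 19.5 and 12.4 in Wfs1HZ and at 13.3, 10.9, 7.05 and 10.96 in Wfs1KO. In Wfs1KO 3 of the 4 animals were below every WT animal, and replicate 1 was just under WT replicate 2. The means were 16.5 ± 4.77 in WT and 10.6 ± 2.60 in Wfs1KO (SD, n = 4), a log2 fold change of -0.63 (SE 0.26, 95% confidence interval -1.22 to -0.05), which is a ratio of 0.644. The unadjusted p was 0.0362 by limma, the adjusted p 0.848, and the exact permutation p 0.0571. It ranked 925 by p among all transcripts, and 1.74% of all transcripts had an unadjusted p under 0.05 and were lower in Wfs1KO. The unadjusted p was above 0.05 when any of 5 animals was left out: it became 0.0567, 0.0881 and 0.0522 without Wfs1KO replicates 2, 3 and 4, and 0.101 and 0.0700 without WT replicates 1 and 4. Without the 4 animals with extreme acinar marker sums the log2 fold change was -0.41 (unadjusted p = 0.184 by limma). Against Wfs1HZ, the log2 fold change of Atp2a3 in Wfs1KO was -0.42 (interval -1.19 to 0.36), and between Wfs1HZ and WT it was -0.22 (-0.97 to 0.54).

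Most beta cell markers had a log2 fold change below 0 in the same comparison. Of 9 tested 7 were lower in Wfs1KO than in WT, with a median log2 fold change of -0.75. Of the 9, 2 had an unadjusted p under 0.05 by limma and 0 an FDR under 0.05. Over all transcripts tested 57.8% had a log2 fold change above 0 and 5.64% an unadjusted p under 0.05. In no marker did all Wfs1KO animals lie below all WT animals. The summed level of the beta cell markers was 32086 to 179874 RPKM in WT and 22394 to 91427 in Wfs1KO. Across the 12 animals the summed beta cell markers and Atp2a3 correlated with a Pearson r of 0.642 and a Spearman rho of 0.552 (permutation p = 0.0251 and 0.0681, adjusted p = 0.144 and 0.265 over 120 relations), and r was 0.488 without the 2 animals farthest from the median of the sums. For Atp2a2 r was 0.623 and rho 0.685 (permutation p = 0.0314 and 0.0171, adjusted p = 0.164 and 0.174), and r was 0.514 without the 2 farthest animals. These relations were not particular to beta cell markers. With the stromal markers Atp2a3 had an r of -0.59 and a rho of -0.636 (r = -0.608 without the 2 farthest animals). With the smooth muscle markers Atp2a2 had an r of -0.502 and a rho of -0.664. Other sums were less related, such as the acinar markers (r = 0.184 for Atp2a3 and 0.091 for Atp2a2). The part of beta cell RNA in the lower SERCA values was not tested.

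Atp2a1 (chr7:126445858-126463108, minus strand) encodes SERCA1, the pump of fast-twitch skeletal muscle. It was at 0.17, 0.19, 0.70 and 0.14 RPKM in WT, at 0.11, 0.53, 0.20 and 0 in Wfs1HZ and at 0.21, 0.14, 0.25 and 0.44 in Wfs1KO. These values stand for roughly 0 to 6.98 reads in an animal, so no difference was detectable at this depth. Its exons overlap those of Rabep2 on the opposite strand by 763 bases, and whether counting used the strand is not given in the sources used here. The low values of Atp2a1 are therefore uncertain.

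The promoters of Atp2a3, which the islet expressed, and Atp2a1, which was near 0, are shown because their sequences differ. RefSeq windows from 250 bases before to 50 bases after the start of transcription (GRCm38.p6) were matched for 8 of the 10 genes, all but Atp2a2 and Itpr1. Capitals mark the GC box, GGGCGG on either strand:
Atp2a3 (chr11:72960919-72961218, plus strand): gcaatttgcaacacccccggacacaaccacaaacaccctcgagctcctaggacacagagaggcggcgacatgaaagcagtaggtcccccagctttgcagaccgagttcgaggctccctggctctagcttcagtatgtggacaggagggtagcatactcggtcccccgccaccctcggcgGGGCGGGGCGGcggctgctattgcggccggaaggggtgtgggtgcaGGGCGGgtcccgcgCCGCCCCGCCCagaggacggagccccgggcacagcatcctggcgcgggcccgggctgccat
Atp2a1 (chr7:126463024-126463323, minus strand): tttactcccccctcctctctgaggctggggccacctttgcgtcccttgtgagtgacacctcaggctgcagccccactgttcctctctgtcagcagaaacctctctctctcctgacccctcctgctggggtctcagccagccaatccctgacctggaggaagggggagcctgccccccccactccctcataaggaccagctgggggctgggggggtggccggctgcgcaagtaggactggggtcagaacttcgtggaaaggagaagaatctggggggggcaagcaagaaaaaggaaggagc
The Atp2a3 window held 5 GC boxes, some of which overlap in the printed run, and 25 CG dinucleotides. The Atp2a1 window held 0 GC boxes and 4 CG dinucleotides. GC boxes were in 7 of the 8 windows, Atp2a1 being the exception, and in 35.7% of the 32851 mouse promoters of the same length. The TATA box (TATAAA, either strand) was in 0 of 8 against 13.6% of all, and CCAAT was in 4 of 8 against 37.4% of all. The matches are letters in a window and were not tested for function.

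The IP3 receptors are the main ER release channels, and the 3 paralogs differ in their affinity for IP3 and in the cells that use them. Itpr1 (chr6:108213096-108551109, plus strand) was the most abundant in every genotype mean. It was at 13.8, 35.8, 22.4 and 11.7 RPKM in WT, at 18.3, 24.0, 15.2 and 6.25 in Wfs1HZ and at 10.2, 13.4, 8.29 and 21.5 in Wfs1KO. Its spread within genotypes was wide, with a mean of 20.9 ± 10.9 RPKM in WT, 15.9 ± 7.40 in Wfs1HZ and 13.3 ± 5.81 in Wfs1KO (SD, n = 4). Its log2 fold change in Wfs1KO against WT was -0.60 with an interval from -1.50 to 0.31, which allows for a lower or a higher level in Wfs1KO. It was -0.29 (unadjusted p = 0.450 by limma) without WT replicate 2, the WT animal with the highest Itpr1.

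Itpr2 (chr6:146108299-146502223, minus strand) was at 3.19, 2.74, 3.49 and 3.89 RPKM in WT, at 6.10, 5.56, 4.54 and 3.20 in Wfs1HZ and at 2.82, 4.26, 3.24 and 3.45 in Wfs1KO. Of the 4 Wfs1HZ animals 3 were above every WT animal, and replicate 4 was within the WT range. The log2 fold change between Wfs1HZ and WT was 0.50 (interval -0.19 to 1.19, adjusted p = 1 by limma, exact permutation p = 0.0857), and it was 0.68 (unadjusted p = 0.0300 by limma) without Wfs1HZ replicate 4 and 0.66 (unadjusted p = 0.0436) without the 4 animals with extreme acinar marker sums. In Wfs1KO the values were 2.82 to 4.26 RPKM, and the estimate against WT was 0.04 (-0.50 to 0.58). Itpr3 (chr17:27057304-27122223, plus strand) had overlapping ranges: 4.18 to 6.97 RPKM in WT, 4.13 to 6.87 in Wfs1HZ and 4.72 to 7.81 in Wfs1KO. In Wfs1KO against WT its log2 fold change was 0.09 with an interval from -0.48 to 0.65, and 0.36 without the 4 animals with extreme acinar marker sums.

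Ryr2 (chr13:11553102-12106945, minus strand), the ryanodine receptor of heart muscle, was low. It was at 0.24, 0.37, 0.18 and 0.24 RPKM in WT, at 0.38, 2.70, 0.44 and 0.15 in Wfs1HZ and at 0.35, 0.40, 0.30 and 0.81 in Wfs1KO. The highest value, in Wfs1HZ replicate 2, came from the animal with the most smooth muscle marker RNA (145 RPKM), and the highest Wfs1KO value from the animal with the next most (31.9 RPKM). Over the 12 animals Ryr2 and the sum of 5 smooth muscle markers had a Pearson r of 0.952 and a Spearman rho of 0.718 (permutation p = 0.00015 and 0.0110, adjusted p = 0.0078 and 0.143 over the 120 relations), and r was 0.657 without the 2 farthest animals. With the stromal markers r was 0.878 and rho 0.683 (permutation p = 0.00026 and 0.0174, adjusted p = 0.0078 and 0.174, r = 0.661 without 2 animals), and with the acinar markers r was -0.843 and rho -0.725 (permutation p = 0.0008 and 0.00971, adjusted p = 0.0192 and 0.143, r = -0.579 without 2 animals). All 3 relations were weaker without those animals. Ryr2 differed between Wfs1KO and WT by 0.61 on the log2 scale (interval -0.37 to 1.58, exact permutation p = 0.0857). This became 0.35 without Wfs1KO replicate 4 and 0.21 with a pseudocount of 1. Between Wfs1HZ and WT it was 0.89 (-0.88 to 2.66), and 0.19 without Wfs1HZ replicate 2. Of the ryanodine receptors, Ryr3 took the largest mean share of the summed RPKM in each genotype, 71.3 ± 8.38% in WT, 57.0 ± 9.20% in Wfs1HZ and 59.4 ± 12.5% in Wfs1KO (SD, n = 4), a share chosen after its values were seen.

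No store-operated entry gene passed the test. Stim1 (chr7:102267806-102437319, plus strand), the sensor that responds to strong store depletion, was at 15.3, 14.5, 10.3 and 9.44 RPKM in WT, at 14.6, 17.0, 17.0 and 9.67 in Wfs1HZ and at 11.3, 10.0, 7.39 and 18.7 in Wfs1KO. Stim1 differed between Wfs1KO and WT by -0.11 on the log2 scale (interval -0.78 to 0.56). Against Wfs1HZ the value was -0.34 (-1.05 to 0.37). Without the 4 animals with extreme acinar marker sums it was -0.56 (unadjusted p = 0.0255 by limma). All of the animals left out belong to these mutant groups, so few remained in each. Stim2 (chr5:53998499-54121057, plus strand), a sensor that responds to small falls in luminal calcium, was at 13.9, 11.6, 10.6 and 10.6 RPKM in WT, at 12.6, 18.6, 13.7 and 7.37 in Wfs1HZ and at 12.7, 11.8, 9.83 and 16.7 in Wfs1KO. It had the narrowest interval of the set between Wfs1KO and WT, a log2 fold change of 0.11 (-0.34 to 0.56), which leaves room for a ratio of up to 1.47 or down to 0.790.

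Orai1 (chr5:123015074-123030456, plus strand), the pore of the store-operated channel, was at 2.17, 1.66, 4.00 and 4.14 RPKM in WT, at 3.70, 2.90, 1.30 and 4.54 in Wfs1HZ and at 3.43, 4.57, 4.01 and 2.58 in Wfs1KO. Orai1 differed between Wfs1KO and WT by 0.35 on the log2 scale (interval -0.46 to 1.15), and by 0.11 without WT replicate 2 (unadjusted p = 0.755 by limma). Among the ORAI genes Orai3 had the largest mean share of the summed RPKM in each genotype, 62.9 ± 5.45%, 64.0 ± 9.81% and 62.1 ± 11.7%, against 13.6 ± 4.89%, 14.8 ± 7.48% and 14.4 ± 4.41% for Orai1 (SD, n = 4, in the order WT, Wfs1HZ, Wfs1KO). These shares were also chosen after their values were seen.

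A share within a family does not depend on how the libraries were scaled, and by this measure the genotypes overlapped too. Atp2a2 made up 94.0 ± 0.52% of the summed SERCA RPKM in WT, 92.6 ± 2.08% in Wfs1HZ and 94.4 ± 1.24% in Wfs1KO (SD, n = 4). Atp2a3 made up 5.91 ± 0.59%, 7.26 ± 2.18% and 5.42 ± 1.19%. The ratio of Atp2a2 to Atp2a3 was 14.5 to 18.03 in WT, 9.37 to 21.6 in Wfs1HZ and 14.4 to 23.3 in Wfs1KO, so the lower means of both pumps in Wfs1KO left their ratio within overlapping ranges. Summed over the SERCA genes the level was 278 ± 64.8 RPKM in WT, 199 ± 33.5 in Wfs1HZ and 198 ± 50.3 in Wfs1KO.

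Itpr1 made up 67.1 ± 11.9% of the summed IP3 receptor RPKM in WT, 57.9 ± 8.55% in Wfs1HZ and 56.9 ± 10.4% in Wfs1KO. The share of Itpr2 was 12.5 ± 5.21%, 19.2 ± 3.66% and 15.6 ± 3.41%, and that of Itpr3 20.4 ± 7.77%, 23.0 ± 5.90% and 27.5 ± 7.83%. Stim1 and Stim2 were near parity in each animal, with Stim1 at 42.9% to 56.7% of their sum.

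**Figure D3:**
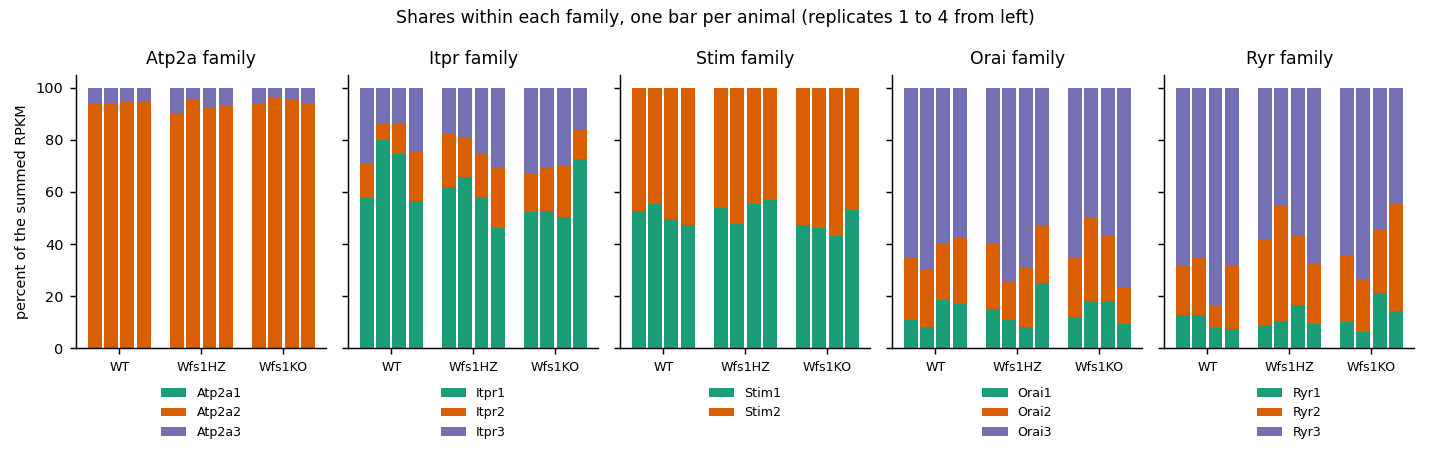
Share of each paralog (percent of the summed RPKM of its family, stacked to 100) in each of the 12 animals, for the SERCA, IP3 receptor, STIM, ORAI and ryanodine receptor genes. Atp2a2 is above 90% of the SERCA sum in every animal, while the share of Itpr1 runs from 46.0% to 80.0% over the 12 animals.

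Itpr1 followed the alpha cell markers from animal to animal. Alpha cells make glucagon, and their 5 markers, Gcg among them, summed to 50944 RPKM in the lowest animal and 220984 in the highest. The 3 animals with the highest sums, WT replicate 2 (185635 RPKM), Wfs1HZ replicate 2 (157636) and Wfs1KO replicate 4 (220984), had the highest Itpr1 of their own genotype (35.8, 24.0 and 21.5 RPKM). On the log2 scale of Itpr1, Pearson r was 0.867 and Spearman rho 0.909 over 12 animals (permutation p = 0.00024 and 0.00011, adjusted p = 0.0078 and 0.0132 over the 120 relations of 10 genes with 12 marker sums). Without the 2 animals farthest from the median of the sums r was 0.868, and with the genotype means taken out it was 0.890. With those means taken out, r was also 0.861 with endothelial, -0.837 with immune, 0.807 with stromal and -0.791 with beta cell markers. It was 0.165 with delta cell and -0.352 with ductal markers. The relation was thus not particular to alpha cell markers. As pooled, the lowest adjusted permutation p of r with another sum was 0.108 (skeletal muscle, r = 0.683). No alpha cell marker passed the test between Wfs1KO and WT, where 5 of 5 were lower with a median log2 fold change of -0.25. Over all transcripts tested 57.8% were above 0. The part of the alpha cell markers in the lower Itpr1 mean of Wfs1KO was not tested.

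The STIM genes ran opposite to the acinar markers over 12 animals. For Stim2 r was -0.902 and rho -0.839 over 12 animals (permutation p = 7e-05 and 0.00116, adjusted p = 0.0078 and 0.0696), and r was -0.834 without the 2 farthest animals. For Stim1 r was -0.776 and rho -0.741 (permutation p = 0.0012 and 0.00785, adjusted p = 0.0240 and 0.135), and r was -0.696 without the 2 farthest animals. The sums fall into separate clusters of 2, 8 and 2 animals, and within the 8 middle animals r was -0.502 for Stim2 and -0.450 for Stim1 (exact permutation p = 0.209 and 0.242). The pooled relation therefore rests on the outer animals. It was not particular to the STIM genes. With the acinar markers r was also -0.843 for Ryr2, -0.651 for Itpr1, -0.577 for Atp2a1, -0.361 for Itpr3 and -0.257 for Itpr2. It was above 0 for Atp2a2 (0.091), Atp2a3 (0.184) and Orai1 (0.383). The median of all transcripts tested was 4.15 and 2.49 RPKM in the 2 acinar-poor animals and 1.20 and 1.57 in the 2 acinar-rich ones. In the middle 8 it was 1.60 to 2.22. The part of this shift was not tested.

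**Figure D4:**
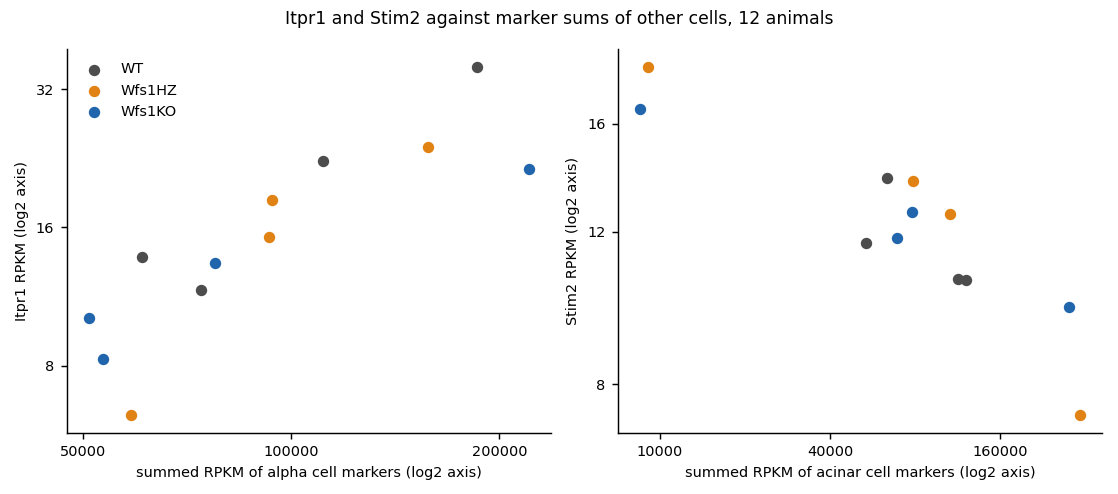
Itpr1 RPKM against the summed RPKM of alpha cell markers (left) and Stim2 RPKM against the summed RPKM of acinar cell markers (right), with log2 axes and a point for each of 12 animals coloured by genotype. On the left higher alpha sums go with higher Itpr1 (r = 0.867), and on the right 2 animals lie at 9107 RPKM or below and 2 at 278975 RPKM or above, away from the middle 8.

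The wider calcium machinery gave the same overall count. The 7 lists of pathway genes held 112 genes that could be tested, and 0 passed an FDR of 0.05 in any comparison. At an unadjusted p under 0.05, 7 of 112 (6.25%) were called between Wfs1KO and WT, 5 (4.46%) between Wfs1KO and Wfs1HZ and 1 (0.893%) between Wfs1HZ and WT, beside 5.64%, 2.45% and 2.35% of all transcripts. The list medians between Wfs1KO and WT lay between -0.22 for mitochondrial calcium uptake (9 genes tested) and 0.39 for the calcium-binding proteins of the ER lumen (18 genes), beside 0.07 over all transcripts.

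Of the 18 calcium-binding genes of the ER lumen, 16 had a log2 fold change above 0 between Wfs1KO and WT, as 57.8% of all transcripts tested did. Without the 4 animals with extreme acinar marker sums the count was 13 of 18. Of the 18, 2 passed an unadjusted p of 0.05 and 0 passed the FDR, beside 5.64% and 0.0138% of all transcripts tested. In the same comparison 11 of 12 acinar markers had a log2 fold change below 0, with a median of -0.25 and 0 called at an unadjusted p under 0.05, and their part in the values of the list was not tested. Pdia6, an ER disulfide isomerase, was at 88.4, 63.7, 89.6 and 80.5 RPKM in WT, at 114, 88.7, 87.2 and 60.9 in Wfs1HZ and at 183, 172, 114 and 112 in Wfs1KO. Wfs1HZ overlapped both other genotypes. All 4 Wfs1KO animals were above all 4 WT animals, a pattern that 1.75% of all transcripts tested showed in this direction. Its log2 fold change was 0.82 (SE 0.22, interval 0.32 to 1.33), with an unadjusted p of 0.00496 and an adjusted p of 0.835 by limma. The chaperone Hspa5 (BiP), a large calcium store of the lumen, was at 572, 627, 1181 and 690 RPKM in WT and at 1182, 1662, 1051 and 1024 in Wfs1KO. It was at 1248, 984, 979 and 523 RPKM in Wfs1HZ, which overlapped both other genotypes. WT and Wfs1KO overlapped as well, since WT replicate 3 lay within the Wfs1KO range. The study lists Hspa5 among ER stress markers without a significant difference between Wfs1KO and WT.

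**Figure D5:**
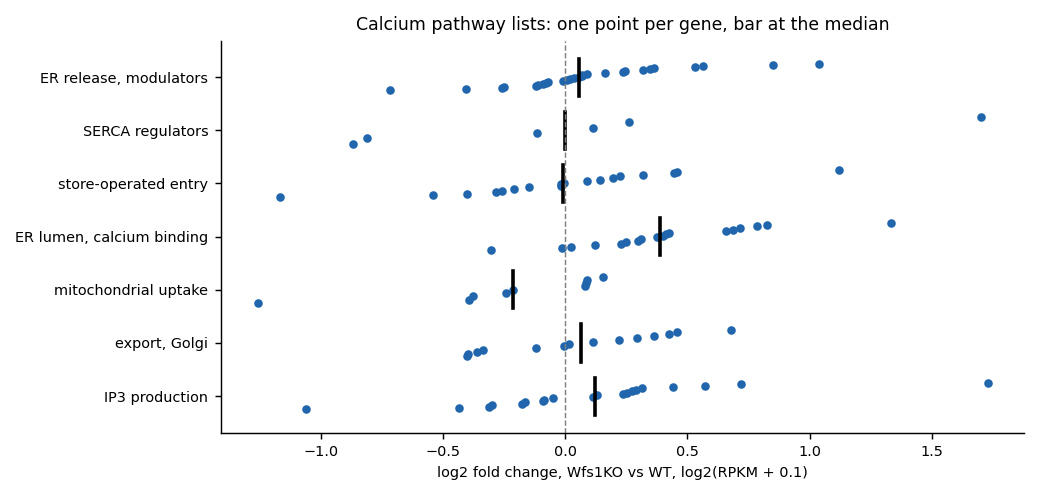
Log2 fold change between Wfs1KO and WT (horizontal axis, log2(RPKM + 0.1) scale) for every tested gene of the 7 calcium pathway lists, with a bar at the median of each list. The list of calcium-binding proteins of the ER lumen lies furthest to the right, with a median of 0.39 and 16 of 18 genes above 0.

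The promoter of Pdia6 is shown because it holds the ER stress response element (CCAAT and CCACG with 9 bases between them, on either strand). Like most mouse promoters, the 8 member promoters did not hold it, and Atp2a2 and Itpr1 had no matched promoter. Capitals mark the element, which starts 98 bases before the start of transcription:
Pdia6 (chr12:17266339-17266638, plus strand, GRCm38.p6): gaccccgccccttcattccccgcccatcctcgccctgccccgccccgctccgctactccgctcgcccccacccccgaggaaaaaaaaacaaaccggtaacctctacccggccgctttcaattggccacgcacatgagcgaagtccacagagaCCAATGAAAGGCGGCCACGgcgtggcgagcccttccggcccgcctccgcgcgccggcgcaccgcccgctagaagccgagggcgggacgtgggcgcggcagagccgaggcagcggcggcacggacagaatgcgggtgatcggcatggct
The element was in 5 of the 16 ER calcium-binding genes with a RefSeq promoter (Calr, Canx, Hsp90b1, Hspa5 and Pdia6), and in 39 of the 32851 mouse promoters of this length, or 0.119%. Its CCAAT part is counted among the CCAAT matches as well.

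The remaining lists had single genes that stood out without passing the FDR. Ero1lb, a beta cell oxidase that acts with Pdia6 in disulfide formation, was at 11.5 to 22.9 RPKM in Wfs1KO and 15.6 to 38.7 in WT (log2 fold change -0.87, unadjusted p = 0.0234, adjusted p = 0.835 by limma). The channel gene Trpc6 was at 0.72 to 1.39 RPKM in Wfs1KO and 0.21 to 0.70 in WT (1.12, adjusted p = 0.844 by limma). It reached the mean of 1 RPKM set for naming only through Wfs1HZ replicate 2, at 7.09 RPKM against 0.17 to 0.62 in the other Wfs1HZ animals. Its WT values lie at or near the floor of 0.158 to 0.693 RPKM. Vdac1, the calcium-permeable pore of the outer mitochondrial membrane, was at 57.1 to 80.1 RPKM in Wfs1KO and 81.6 to 114 in WT (-0.39, adjusted p = 0.879 by limma).

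Genes of IP3 production differed in both directions without passing the FDR. Plcb3 was at 3.71 to 4.79 RPKM in Wfs1KO and 2.53 to 3.38 in WT (log2 fold change 0.44, adjusted p = 0.879 by limma), whereas Plcg1 was at 4.11 to 4.65 and 4.85 to 6.19 (-0.30, adjusted p = 0.892 by limma). Itpripl1 was at 1.92 to 2.48 RPKM in Wfs1KO and 1.45 to 1.78 in WT. Slc24a3, a sodium-calcium-potassium exchanger, was at 1.06 to 3.55 RPKM in Wfs1KO and overlapped WT (1.40 to 3.14).

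The animals of Wfs1KO and Wfs1HZ did not overlap in 2 of the 112 listed genes, both lower in Wfs1KO. Of all transcripts tested 1.43% did not overlap in either direction, and 0.502% were lower in Wfs1KO. Tmem110, a regulator of STIM at the contact of ER and plasma membrane, was at 1.22 to 2.03 RPKM in Wfs1KO and 2.20 to 3.75 in Wfs1HZ. Jph4, a junctophilin, was at 0.52 to 1.01 and 1.08 to 2.31 RPKM (log2 fold change -0.89, interval -2.07 to 0.30). Its means were 0.74 RPKM in Wfs1KO, 1.47 in Wfs1HZ and 0.85 in WT, so it reached the mean of 1 RPKM set for naming only through Wfs1HZ. Nucb2, a calcium-binding protein of the secretory pathway, was at 90.9 to 209 and 46.6 to 96.4 RPKM (log2 fold change 0.92, adjusted p = 1 by limma). Smaller or overlapping differences were seen in Tmx1 (0.50), Slc24a5 (0.45) and Gna14 (1.65) on the log2 scale.

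Between Wfs1HZ and WT no listed gene separated the groups. Named for the largest difference of each list (log2 scale) were Jph4 (0.81), Ero1l (-0.52), Trpc5 (1.61), Casq2 (0.91), Ccdc109b (-1.02), Slc8a1 (-0.60) and Plcb4 (-0.63), each with an adjusted p of 1 by limma. The Casq2 value came from 1 animal, since it was -0.01 without Wfs1HZ replicate 2. Jph4 and Casq2 reached the mean of 1 RPKM set for naming only through Wfs1HZ. The mean of Trpc5 also rested mostly on Wfs1HZ, at 3.0 RPKM against 1.03 in WT and 0.91 in Wfs1KO.

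The transcripts whose levels went most closely with a member were named by the highest Pearson r over 12 animals among the 7969 whose mean reached 5 RPKM and which were above 0 in every animal. They were chosen for this value, so it carries no test, and the animals share their cell mixture and depth. For Atp2a2 they were Fam135a (0.924), Inpp5f (0.919) and Ccdc132 (0.903), and for Atp2a3 Psap (0.931), Madd (0.906) and Hdac6 (0.903). Itpr1 went with Trim35 (0.975) and Usp11 (0.960), Itpr2 with Klf7 (0.808) and Odc1 (0.788), and Itpr3 with 1810009A15Rik (0.898), Trmt1 (0.896) and Mapkap1 (0.874). Stim1 went with Lysmd2 (0.949), Ppm1b (0.934) and Rab4a (0.932), Stim2 with Lzic (0.977), Tnpo1 (0.965) and Fbxo45 (0.962), and Orai1 with Lad1 (0.840), Ube2q1 (0.809) and Pnp (0.779).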

How the data were processed

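Islet RNA of 12 mice was sequenced, 4 per genotype, and genotype and replicate number were taken from the sample labels. Mapping to mm10 was done with LifeScope by the authors, who deposited RPKM values, 1 column for each animal, rounded to 2 decimals. The tool that counted reads, the gene annotation and the use of strand are not given in the sources used here. RPKM are not counts, so a test on counts was not run.

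Values entered each fit as log2(RPKM + 0.1), with no rescaling. For each pair of genotypes limma 3.58.1 under R 4.3.3 was run with its variance trend, and p-values were adjusted by Benjamini-Hochberg over 21701 of 24078 entries with a mean of at least 0.1 RPKM. All 10 members passed this filter. Fold changes on this scale understate those of low genes. Exact two-sided permutation tests of single genes used the 70 splits of 4 against 4 animals. Relations to marker sums used 100000 permutations. Other steps ran in Python 3.11.15 (scipy 1.17.1, pandas 2.3.3, numpy 2.4.6), and plots were drawn by matplotlib 3.10.9. The fit was tested on simulated data.

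The members, the pathway and marker lists and the tests were chosen with earlier results of these data known. Named genes of a list are those with a mean of at least 1 RPKM whose animals did not overlap between genotypes, at most 4 per list, otherwise the gene at or above that mean with the largest log2 fold change. Hspa5, the Orai and Ryr shares and the marker relations were chosen after their values were seen. A few genes that these rules select are not reported here. Gene positions are from GENCODE M21 and promoters from RefSeq, both of the mm10 build (GRCm38). The alternatives tried were other pseudocounts and filters, other scalings, other variance models, array weights, a block on replicate number, and leaving out animals.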

Additional observations from a re-analysis of the deposited data

Results flagged for a closer look

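Among 33 groups of 4 animals (the 10 genes and Wfs1 in each genotype), 2 held an animal far from the other 3, and chance gives about 1 in 20. Atp2a1 was at 0.70 RPKM in WT replicate 3 against 0.14 to 0.19 in the other WT animals, and the gap was 91.1% of the range of the group. This animal also had the highest sum of skeletal muscle markers, 7.12 RPKM against 0.97 to 4.31 in the other 11 animals. It had an estimated 2868000 reads, so that 0.70 RPKM stands for about 6.98 reads. Ryr2 was at 2.70 RPKM in Wfs1HZ replicate 2 against 0.15 to 0.44 in the other Wfs1HZ animals, with a gap of 88.6% of the range. In the same animal the smooth muscle markers summed to 145 RPKM and the stromal markers to 341 RPKM, the highest of the 12 animals, and the median of the transcripts tested was 4.15 RPKM against 1.20 to 2.49 in the others. The part of these cells and of the library in both values was not tested.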

How the results depend on the processing

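No member passed an FDR of 0.05 in any comparison under any of the 20 alternatives to each fit. The number at an unadjusted p under 0.05 did vary. Between Wfs1KO and WT it was 2 with quantile normalization, where Atp2a2 joined Atp2a3, and 0 with a variance without trend, with all 12 animals in one fit, with array weights and without the 4 animals with extreme acinar sums (an alternative chosen after seeing the data), and leaving out 1 animal gave 0 to 1. Between Wfs1KO and Wfs1HZ the number of members was 3 with array weights (Atp2a3, Stim1 and Orai1). It was 2 without the 4 animals (Atp2a3 and Stim1), a fit of 2 against 2 animals. Leaving out 1 animal gave 0 to 1 (1 without Wfs1HZ replicate 2, Atp2a3). Calls over all transcripts rose as well, from 532 in the main fit to 2243 with array weights. They were 2094 without the 4 animals and 1308 without Wfs1HZ replicate 2. Between Wfs1HZ and WT the number of members was 1 with array weights and 1 without the 4 animals (Itpr2 in both). Leaving out 1 animal gave 0 to 1 (1 without Wfs1HZ replicate 4 or without WT replicate 2). Here the calls over all transcripts were 511 in the main fit, 1539 with array weights and 883 without the 4 animals. They were 1087 without Wfs1HZ replicate 4 and 506 without WT replicate 2. Of all transcripts, the 3 called at an FDR of 0.05 in Wfs1KO against WT became 0 with a pseudocount of 1, 1 with all 12 animals in one fit, 0 without the 4 animals and 0 to 1 leaving out 1 animal. Between Wfs1KO and Wfs1HZ the 0 became 1 with a robust variance and 5 with array weights, and between Wfs1HZ and WT it became 1 with no filter and 2 with a variance without trend. Wfs1 kept its direction in all settings, with an adjusted p between 0.00157 and 0.541 in Wfs1KO against WT, above 0.05 in 16 of 20. The cause of these differences was not tested.

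Some estimates changed sign. Between Wfs1KO and WT, Atp2a1 became 0.0025 with a pseudocount of 0.01. Between Wfs1KO and Wfs1HZ, Atp2a2 became -0.076, -0.19 and -0.036 and Stim2 -0.066, -0.083 and -0.081 with median-of-ratios scaling, quantile normalization and array weights, Itpr3 became -0.0067 with median-of-ratios scaling, and Stim2 became -0.10 without the 4 animals. Between Wfs1HZ and WT, Atp2a3 became 0.13 with array weights and 0.29 without the 4 animals, and Orai1 became -0.22 with quantile normalization, -0.39 with array weights and -0.32 without the 4 animals. Leaving out 1 animal gave these ranges for genes that changed sign. Between Wfs1KO and WT they were -0.24 to 0.37 for Atp2a1, -0.062 to 0.13 for Itpr2, -0.050 to 0.20 for Itpr3, -0.36 to 0.083 for Stim1 and -0.028 to 0.22 for Stim2. Between Wfs1KO and Wfs1HZ they were -0.16 to 0.12 for Atp2a2, -0.59 to 0.050 for Itpr1, -0.074 to 0.17 for Itpr3, -0.75 to 0.41 for Ryr2, -0.24 to 0.20 for Stim2 and -0.032 to 0.54 for Orai1. Between Wfs1HZ and WT they were -0.39 to 0.068 for Atp2a3, -0.11 to 0.16 for Itpr3, -0.10 to 0.35 for Stim2 and -0.21 to 0.38 for Orai1, and -0.0059 to 1.47 for Casq2. The lower Atp2a2 and Atp2a3 means of Wfs1KO against WT kept their sign in all 20 settings, at -0.64 to -0.21 and -0.76 to -0.41. Other filters, other variance models, the fit of all 12 animals and the replicate block leave an estimate as it was. No sign could change in those settings.

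The count of 16 of 18 ER calcium-binding genes above 0 between Wfs1KO and WT was 13 without the 4 animals and 15 to 17 in the other alternatives that kept all 18, while a minimum mean of 1 RPKM left 14 genes with 12 above 0, and Pdia6 stayed between 0.70 and 1.15 with an unadjusted p of at most 0.0178. Between Wfs1HZ and WT the count of 10 became 6 of the 14 left by a minimum mean of 1 RPKM, and of all 18 it became 17 without the 4 animals, and 6 to 14 leaving out 1 animal (6 without Wfs1HZ replicate 2). Scaling moved the split of calls at an unadjusted p under 0.05 between Wfs1KO and WT, of which 69.2% were higher in Wfs1KO as deposited, 56.6% with median-of-ratios scaling and 47.2% with quantile normalization. Between Wfs1KO and Wfs1HZ the split was 69.2%, 49.8% and 52.8%.

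Animals with the same replicate number are different animals, and nothing in the labels says that a number marks a shared litter or day. For this reason the numbers were not taken as pairs. Correlations of same-numbered deviations ran from -0.13 to 0.06, -0.17 to 0.09 and -0.05 to 0.23 in the 3 comparisons. Those of differently numbered animals ran from -0.11 to 0.19, -0.17 to 0.23 and -0.20 to 0.13. Between Wfs1HZ and WT the pairs of replicates 2 (0.23) and 4 (0.21) lay above every differently numbered pair. With the replicate block, 0 transcripts in place of 3 were called at an FDR of 0.05 in Wfs1KO against WT, and the members were called as before. In Wfs1HZ against WT the block raised the transcripts at an unadjusted p under 0.05 by limma from 511 to 854. At 3 reads on 2000 bases the floor is 0.158 to 0.693 RPKM, and Atp2a1 lies at or near it, so differences in it were not detectable at this depth.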

Other observations

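The 10 genes did not vary as a block, although 1 animal came close. In Wfs1HZ replicate 4, 9 of the 10 genes were below the median of their genotype, with a median deviation of -0.67 on the log2 scale, whereas the median deviation of the other 11 animals lay between -0.27 and 0.24. The median of all transcripts tested was also lowest in this animal, at 1.20 RPKM against 1.57 to 4.15 in the other 11. The low values were thus not particular to the 10 genes. In this animal the 10 most abundant transcripts took 69.2% of the summed RPKM, against 43.1% to 60.4% in the other animals, and its acinar markers summed to 307248 RPKM. Orai1 was the exception, at 4.54 RPKM the highest of its genotype. Stromal and smooth muscle markers were higher in Wfs1KO than in WT in 5 of 6 and 5 of 5 genes tested, with median log2 fold changes of 1.17 and 0.91. In either list 0 genes had an FDR under 0.05 by limma (1 and 0 at an unadjusted p under 0.05). Endothelial markers were higher in 5 of 5 genes with a median of 0.56, and 1 had an unadjusted p under 0.05. Over all transcripts tested 57.8% had a log2 fold change above 0 and 5.64% an unadjusted p under 0.05. These values have no test of the lists and are given as a description.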
